A study of Mus musculus with 9 samples.

Results

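The genes described here are 39 genes of the unfolded protein response and the integrated stress response, chosen by name and looked up in the count files through their Ensembl identifiers. All 39 were found among the 47643 genes of the files, and all 39 had enough reads to be among the 14105 genes tested. The rule that names them uses no measured value, though the list was made with earlier results of these data known. They were compared between Yap-deficient pancreatic ductal adenocarcinoma (PDAC) cells of KPYYF mice (3 libraries) and Yap-expressing PDAC cells of KPF mice (6 libraries).

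Proteins that enter the endoplasmic reticulum (ER) are folded there by chaperones and by enzymes that form disulfide bonds, and those that fail to fold are sent back to the cytosol and degraded. When unfolded proteins build up, the ER sensors IRE1, ATF6 and PERK raise the transcription of these helpers, through spliced Xbp1 and through cleaved ATF6, and slow protein synthesis through phosphorylation of eIF2alpha. The last step is shared with kinases that sense amino acid shortage, viral RNA or heme, which is why it is called the integrated stress response, and its main transcription factor is ATF4. Acinar cells, plasma cells and mucous cells secrete large amounts of protein and are known for high levels of many of these genes.

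KPF mice carried Trp53 frt/+ together with Pdx-Flp, so that Flp under a pancreatic promoter removes the frt copy of Trp53. At the R26 locus they carried FSF-CreER and the Dual reporter, which marks cells that expressed Flp with EGFP. KPYYF mice carried Yap flox/flox in addition. Mice of both genotypes ate a tamoxifen (TAM) diet once their tumors could be felt, which activates CreER, turns EGFP off and tdTomato (Tm) on and, in KPYYF mice, deletes Yap. The KPF libraries came from sorted GFP+Yap+ cells and the KPYYF libraries from sorted Tm+Yap- cells of relapsed nodules, so genotype, Yap status and reporter color changed together and cannot be told apart. The age and sex of each mouse were not given. Xist, an RNA of the inactive X chromosome of female cells, had 79, 71 and 159 reads in KPF libraries 4269, 4515 and 4601. It had 10933, 7434 and 5878 reads in KPF libraries 4435, 4504h and 4504s, and 13854, 3452 and 16108 in KPYYF libraries 4449, 4891 and 4938. The groups may therefore also differ in sex, and libraries with at least 1000 Xist reads were compared as an alternative. KPF libraries 4504h and 4504s carry the same mouse number and were counted as 2 libraries, while each of the others carries a number of its own. The p-values measure the spread between these libraries.

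The libraries were 3′ end libraries (QuantSeq), in which a transcript gives about 1 fragment whatever its length, and gene counts ran from 8116539 to 9635514 per library. Yap1, the deleted gene, was at 41.8 to 151 CPM (counts scaled to the TMM-adjusted library size) in the KPF libraries and at 0.712, 2.84 and 7.12 CPM in the KPYYF libraries. The summed level of 13 acinar enzyme and secretion markers was 24053 CPM in KPF library 4504s and 7273 CPM in KPYYF library 4449, against 89.8 to 1190 CPM in the other 7. Leukocyte markers summed to 8247 CPM in KPF library 4601 and to 2528 CPM in 4504s, against 414 to 716 CPM elsewhere. Ductal and tumor epithelial markers summed to 3539 to 11245 CPM in KPF libraries and to 2138, 629 and 868 CPM in KPYYF libraries. The cells were sorted by reporter color and not by these markers, and the paper reports reduced epithelial differentiation genes in Tm+Yap- cells. Of the other marker lists, 6 of 7 islet and 5 of 6 endothelial markers were lower and 6 of 9 fibroblast markers higher in KPYYF cells. Transcripts of the members from such cells and from the tumor cells themselves add up in these bulk libraries, and fewer cells of a type and less RNA per cell cannot be told apart.

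The estimated change between Tm+Yap- and GFP+Yap+ cells was small for most of the ER stress genes, and for 26 of the 39 the log2 fold change was smaller than 0.5 in size. In all, 13 were higher and 26 lower in KPYYF cells, and their median log2 fold change was -0.18 beside -0.07 over all genes tested. None passed at an adjusted p of 0.05 (edgeR's quasi-likelihood test, p-values adjusted over all genes tested by the Benjamini-Hochberg method), which 155 of all genes tested (1.10%) did. DESeq2's Wald test, which called 8.49% of all genes tested, called Ern2, Pdia4 and Herpud1 as lower, and limma-voom called 0 members. At an unadjusted p under 0.05, 0 members were higher (6.10% of all genes tested) and 5 were lower (10.0% of all genes tested). These 5 were Pdia4, Herpud1, Xbp1, Creb3l1 and Ern2. Of them 4, all but Xbp1, also differed by more than 2-fold, the rule of the study's methods, applied here to edgeR's p-values. As higher genes 0 members met the rule (4.20% of all genes), and 9.20% of all genes met it as lower genes. With DESeq2, the tool named in those methods, 4 members met it as lower genes (12% of all genes) and 0 as higher genes (4.51%). The 3 KPYYF libraries lay below all 6 KPF libraries for 3 members, Pdia4, Herpud1 and Creld2 (5.18% of all genes), and above them for 0 (3.92%). Without KPYYF library 4449 the lower members numbered 8 at an unadjusted p under 0.05 (11.2% of all genes tested in that fit), 8 by the rule of the methods (10.5%) and 8 without overlap (10.4%). In that fit 0 members passed at an adjusted p of 0.05 in edgeR's quasi-likelihood test.

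The precision was higher for these genes than for most. The median standard error of their log2 fold changes was 0.39, beside 0.63 over all genes tested, and their read sums over the 9 libraries ran from 283 for Derl3 to 178472 for Hspa5. The 95% interval lay within a change of 2-fold in either direction for 13 members, and it left out a 2-fold rise for 30 and a 2-fold fall for 19. Added together, the 39 genes took 6477 to 9971 CPM of the KPF libraries and 7804, 7588 and 7730 CPM of the KPYYF libraries, which lay inside the KPF range.

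**Figure D1:**
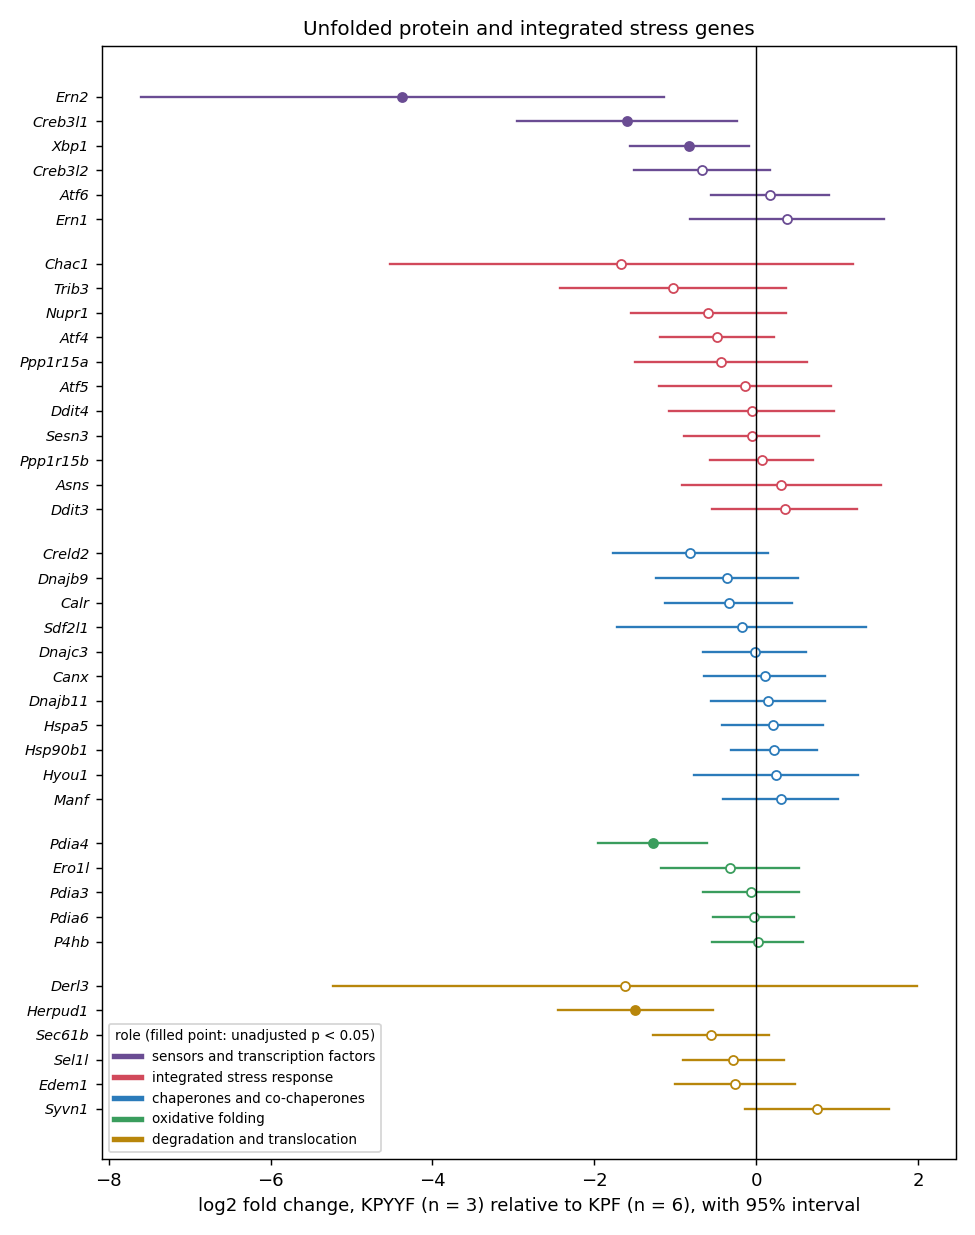
Log2 fold change of each of the 39 genes in KPYYF (n = 3) relative to KPF libraries (n = 6), with its 95% interval from edgeR, in blocks by role. Filled points mark the 5 genes with an unadjusted p under 0.05, all to the left of 0, and the chaperones in blue gather around 0.

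Some of these genes share a promoter element. The ER stress response element (ERSE), the known site of ATF6 with the CCAAT-binding factor NF-Y, reads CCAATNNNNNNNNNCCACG. In promoter windows of RefSeq (GRCm38.p6, the build of the mm10 coordinates), which run from 250 bases before to 50 after a transcription start, 33 of the 39 genes had a window. Searched on either strand, the ERSE was in the windows of 37 of 27025 genes (0.137%) and of 9 of the 33 members (27.3%), namely Hspa5, Hsp90b1, Calr, Canx, Dnajc3, Creld2, Pdia6, Syvn1 and Derl3. Distances are counted from the RefSeq start, which can differ from the GENCODE gene coordinates given further below. For Hspa5 the GENCODE gene begins at 34771970, so that the element lies after that start. The sites of 6 of these members, and for Hsp90b1 1 of its 2 sites, are shown as examples with the bases of both boxes in capitals, 5′ to 3′ in the direction of the element.
Hspa5, chr2:34772020-34772048, + strand, nearest base of the element 47 before the start: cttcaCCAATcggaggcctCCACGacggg
Hsp90b1, chr10:86705528-86705556, + strand, 89 before the start: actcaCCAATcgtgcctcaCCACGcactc
Calr, chr8:84847070-84847098, + strand, 144 before the start: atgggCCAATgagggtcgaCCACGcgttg
Creld2, chr15:88819515-88819543, - strand, 108 before the start: gtggaCCAATtgaggctcgCCACGagaag
Pdia6, chr12:17266486-17266514, + strand, 80 before the start: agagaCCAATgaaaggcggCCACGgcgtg
Syvn1, chr19:6046527-6046555, + strand, 26 before the start: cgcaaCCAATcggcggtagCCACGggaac

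The 9 members with an ERSE had a median log2 fold change of -0.02, with 5 of them lower, and the members with a window but no ERSE had a median of -0.30. With 1 of its 10 fixed bases allowed to differ, the element was in the windows of 466 genes (1.72%) and of 14 members (42.4%), which then took in Pdia3, Pdia4, Herpud1, Sel1l and Ddit3. Matches are a description of these letters and say nothing of binding. The element is known from the ER stress response and the members were chosen by name as its genes, so its share among them is no result of these data. Of the 28 other genes with an exact ERSE, 8 were tested, 3 of them higher and 5 lower (median -0.11), beside -0.07 over all genes tested.

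Herpud1 and Pdia4, the members with the smallest p-values, are shown with the 250 bases before their starts. In Herpud1 the capitals mark, from 5′ to 3′, the reverse complement of TGATGNAA, a core of the element bound by ATF4 with C/EBP proteins (in 1219 genes, 4.51%, and in 5 members, Trib3, Chac1, Asns, Nupr1 and Herpud1), the ERSE-II ATTGGNCCACG (in 12 genes, 0.0444%, and in 2 members, Herpud1 and Dnajb11), and the boxes of an ERSE that differs by G19A, counted from 1 at the 5′ end of the element, whose last base is the start itself and is not printed. In Pdia4 they mark the boxes of an ERSE on the opposite strand that differs by G19T and whose nearest base lies 90 before the start. TGACGTGG, the core of a site bound by spliced XBP1 and ATF6, was in 193 genes (0.714%) and in 0 members.
Herpud1, chr8:94386179-94386428, + strand: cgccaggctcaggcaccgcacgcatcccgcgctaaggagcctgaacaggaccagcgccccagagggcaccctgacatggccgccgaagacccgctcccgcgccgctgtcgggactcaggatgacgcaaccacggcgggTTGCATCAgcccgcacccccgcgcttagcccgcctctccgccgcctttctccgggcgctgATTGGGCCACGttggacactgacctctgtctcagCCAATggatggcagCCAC
Pdia4, chr6:47813513-47813762, - strand: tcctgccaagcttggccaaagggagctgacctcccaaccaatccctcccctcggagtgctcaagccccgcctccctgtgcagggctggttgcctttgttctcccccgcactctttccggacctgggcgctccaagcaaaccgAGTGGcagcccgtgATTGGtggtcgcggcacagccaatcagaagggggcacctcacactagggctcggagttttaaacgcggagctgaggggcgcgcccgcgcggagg

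The sensors and the transcription factors next to them were the role with the lowest median, -0.75 over 6 genes, of which 2 were higher and 4 lower. Ern1, which encodes IRE1alpha, the kinase and RNase that splices Xbp1 mRNA, was at 4.67, 22.5, 31.9, 17.0, 17.6 and 17.1 CPM in KPF libraries 4269, 4435, 4504h, 4504s, 4515 and 4601, and at 39.4, 13.3 and 19.5 CPM in KPYYF libraries 4449, 4891 and 4938. Its log2 fold change was 0.38 (SE 0.56, adjusted p = 0.802 in edgeR's quasi-likelihood test), and the highest level of all 9 was in KPYYF library 4449, without which the value was -0.17. Atf6, the membrane-bound factor that is cleaved in the Golgi, was at 25.2 to 60.0 CPM in KPF libraries with a median of 42.3, and at 55.1, 41.1 and 52.5 CPM in KPYYF libraries. All 3 KPYYF values of Atf6 fell inside the KPF range (log2 fold change 0.17, SE 0.34, adjusted p = 0.869).

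Xbp1 (chr11:5520659-5525893, + strand), the target of IRE1alpha, was at 104, 143, 92.1, 199, 107 and 202 CPM in KPF libraries in the order above and at 101, 74.6 and 63.3 CPM in KPYYF libraries. KPF libraries 4504s and 4601, high in acinar or leukocyte markers, held the highest levels, and KPYYF library 4449 lay above KPF library 4504h, so the groups overlapped. The mean was 141 ± 48.9 CPM (SD, n = 6) against 79.7 ± 19.4 CPM (SD, n = 3), a log2 fold change of -0.83 (SE 0.34, unadjusted p = 0.0298 and adjusted p = 0.245 in edgeR's quasi-likelihood test). Without KPF libraries 4504s and 4601 and KPYYF library 4449 it was -0.66 (unadjusted p = 0.0770 in edgeR's quasi-likelihood test). In that test the unadjusted p of Xbp1 was under 0.05 in 5 of the 9 fits that left out 1 library each. Plasma and B cell markers summed to 271, 659, 46.5, 380, 161 and 2906 CPM in the KPF libraries and to 69.5, 122 and 160 CPM in the KPYYF libraries. All 7 of these markers that were tested were lower in KPYYF cells, with a median log2 fold change of -2.66. Of these 7, 2 had an unadjusted p under 0.05 in edgeR's quasi-likelihood test, beside 10.0% of all genes tested as lower genes. The part of these cells in the level of Xbp1 was not tested. Counts per gene do not separate spliced from unspliced Xbp1 mRNA.

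Creb3l1 and Creb3l2 encode membrane-bound factors that are cleaved like ATF6 and are known from secretory and matrix-producing cells. Creb3l1 (chr2:91982328-92024502, - strand) was at 6.52, 22.9, 17.0, 37.0, 29.2 and 11.5 CPM in KPF libraries and at 8.43, 4.15 and 7.89 CPM in KPYYF libraries. KPF library 4269 was as low as the KPYYF libraries, and the other 5 were above them (log2 fold change -1.60, SE 0.63, unadjusted p = 0.0242 and adjusted p = 0.224 in edgeR's quasi-likelihood test). In that test the unadjusted p of Creb3l1 was under 0.05 in 6 of the 9 fits that left out 1 library each. Creb3l2 was at 39.1 to 138 CPM in KPF libraries and at 68.0, 38.3 and 53.9 CPM in KPYYF libraries (log2 fold change -0.67, SE 0.39, adjusted p = 0.435).

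Ern2 (chr7:122169893-122186207, - strand) encodes IRE1beta, a relative of IRE1alpha that is known from mucous epithelium of gut and airway. It was at 1.85, 14.4, 1.23, 23.0, 54.0 and 12.0 CPM in KPF libraries and at 0, 0.44 and 2.08 CPM in KPYYF libraries, that is 0, 4 and 19 reads, where 3 reads correspond to 0.292 to 0.437 CPM. KPF libraries 4269 and 4504h were as low as the KPYYF libraries, so the groups overlapped. The log2 fold change of -4.37 (SE 1.48, unadjusted p = 0.0122 and adjusted p = 0.169 in edgeR's quasi-likelihood test) was the largest of the 39 and among the least precise. In that test the unadjusted p of Ern2 was under 0.05 in 8 of the 9 fits that left out 1 library each. The summed level of 10 mucous and goblet markers was 361, 2112, 91.1, 909, 3048 and 1174 CPM in the same KPF libraries and 236, 94.8 and 138 CPM in the KPYYF libraries. All 10 of these markers were lower in KPYYF cells, with a median log2 fold change of -2.56. Of these 10, 5 had an unadjusted p under 0.05 in edgeR's quasi-likelihood test, beside 10.0% of all genes tested as lower genes, and the smallest adjusted p was 0.123. The 5 libraries with the lowest Ern2 were the 5 with the lowest mucous marker sums, and the part of these cells in the level of Ern2 was not tested.

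**Figure D2:**
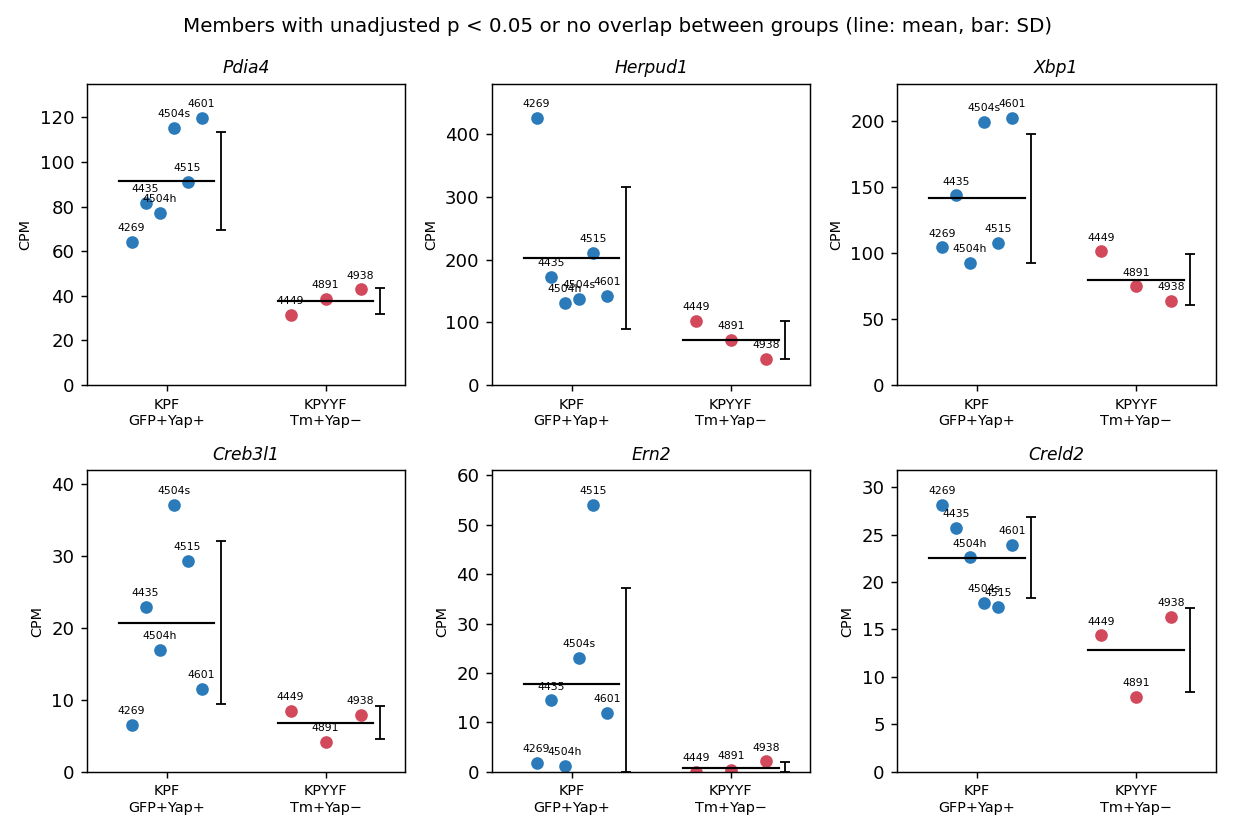
TMM-scaled CPM of Pdia4, Herpud1, Xbp1, Creb3l1, Ern2 and Creld2 in each library, named by its mouse number, with the mean (line) and SD (bar, cut at 0 for Ern2) of 6 KPF and 3 KPYYF libraries. The groups do not overlap for Pdia4, Herpud1 and Creld2, while they overlap for Xbp1, Creb3l1 and Ern2.

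The 11 genes of the integrated stress response split into 3 higher and 8 lower genes with a median of -0.14, and none had an unadjusted p under 0.05. Atf4 (chr15:80255184-80257541, + strand), the transcription factor at the center of the response, which is controlled mainly by translation of its mRNA, was at 439, 336, 346, 655, 563 and 700 CPM in KPF libraries and at 240, 487 and 359 CPM in KPYYF libraries. The lowest of the 9 levels was in KPYYF library 4449 and the others lay inside the KPF range (log2 fold change -0.48, SE 0.33, adjusted p = 0.511 in edgeR's quasi-likelihood test). Without KPF libraries 4504s and 4601 and KPYYF library 4449 it was 0.04. Ddit3 (chr10:127290774-127296288, + strand), which encodes the pro-apoptotic factor CHOP downstream of ATF4, was at 46.1, 31.6, 51.2, 70.0, 78.0 and 54.5 CPM in KPF libraries and at 101, 84.1 and 26.3 CPM in KPYYF libraries. The KPYYF libraries therefore held the highest pair of levels as well as the lowest one (log2 fold change 0.35, SE 0.41, adjusted p = 0.744).

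Trib3, a pseudokinase induced by ATF4 and CHOP, was at 6.04 to 23.9 CPM in KPF libraries and at 4.75, 13.7 and 6.14 CPM in KPYYF libraries (log2 fold change -1.03, SE 0.65). Chac1, a glutathione-degrading enzyme and ATF4 target, was at 0.49 to 18.9 CPM in KPF libraries and at 2.37, 2.41 and 0.88 CPM in KPYYF libraries (log2 fold change -1.67, SE 1.33), and the highest level was in 4504s, without which the value was -0.84. Asns, the asparagine synthetase, was at 6.66 to 40.4 CPM and at 31.9, 37.4 and 27.3 CPM (log2 fold change 0.31, SE 0.57). These targets of ATF4 thus lay on either side of 0, and the KPYYF levels of Asns stayed within the KPF range.

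Ppp1r15a and Ppp1r15b encode the subunits that direct protein phosphatase 1 to eIF2alpha and so end the response, the first on induction and the second constitutively. Ppp1r15a was at 74.3 to 239 CPM in KPF and at 187, 45.3 and 47.7 CPM in KPYYF libraries (log2 fold change -0.43, SE 0.49). Ppp1r15b was at 76.1 to 130 CPM and at 117, 64.6 and 106 CPM (log2 fold change 0.07, SE 0.29). KPYYF library 4449 stood above the other 2 for both genes, and without it the value of Ppp1r15a was -1.44. The remaining members were Nupr1, a small stress-induced chromatin protein (-0.59, SE 0.44, and -0.19 without KPF library 4504s), Atf5, a factor related to ATF4 (-0.14, SE 0.49), Sesn3, an inhibitor of mTORC1 (-0.05, SE 0.39), and Ddit4, another mTORC1 inhibitor that also responds to hypoxia (-0.05, SE 0.47). Ddit4 was at 793 CPM in KPYYF library 4891 and at 272 and 195 CPM in the other 2, so its mean over the group stands for no single library.

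The chaperones were the role with the most even picture, with 6 of 11 higher, 5 lower and a median of 0.11. Hspa5 (chr2:34771970-34777547, + strand), which encodes BiP, the main chaperone of the ER lumen and the standard readout of ER stress, was at 1474, 2266, 1271, 2324, 2306 and 3184 CPM in KPF libraries and at 2436, 2189 and 2756 CPM in KPYYF libraries. All 3 KPYYF values lay inside the KPF range. The mean was 2138 ± 688 CPM (SD, n = 6) against 2460 ± 284 CPM (SD, n = 3), and the log2 fold change was 0.20 with a 95% interval from -0.42 to 0.82 (adjusted p = 0.796 in edgeR's quasi-likelihood test). A change of 2-fold in either direction lay outside this interval.

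Hsp90b1, the ER form of Hsp90, was at 416 to 612 CPM in KPF libraries and at 767, 488 and 573 CPM in KPYYF libraries (log2 fold change 0.22, 95% interval -0.31 to 0.76). Calr and Canx, the lectin chaperones calreticulin and calnexin, had log2 fold changes of -0.34 (SE 0.36) and 0.11 (SE 0.35). Calr was highest in KPF libraries 4601 and 4504s, at 1484 and 1044 CPM, against 482 to 639 CPM in the other 4 and 563 to 685 CPM in KPYYF libraries, and without those KPF libraries and KPYYF library 4449 its value was 0.20. For Hsp90b1, Calr and Canx the difference between the group means was smaller than the SD of the KPF libraries.

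The J-domain partners of BiP had log2 fold changes of -0.36 (SE 0.41) for Dnajb9, 0.15 (SE 0.33) for Dnajb11 and -0.02 (SE 0.29) for Dnajc3. The value of Dnajb9 was -1.07 without KPYYF library 4449 and -1.19 without that library and KPF libraries 4504s and 4601. Hyou1, the exchange factor of BiP, had 0.24 (SE 0.47), Manf, a secreted ER protein that binds BiP, 0.30 (SE 0.33), and Sdf2l1, which forms a complex with Dnajb11, -0.18 (SE 0.71). Sdf2l1 varied from 5.35 to 39.2 CPM among KPF libraries and from 4.59 to 29.7 CPM among KPYYF libraries. Creld2 (chr15:88819646-88826683, + strand), a disulfide isomerase-like protein and ATF6 target, was at 28.1, 25.7, 22.6, 17.8, 17.4 and 23.9 CPM in KPF libraries and at 14.4, 7.87 and 16.3 CPM in KPYYF libraries. The groups did not overlap, and the log2 fold change was -0.81 (SE 0.44, unadjusted p = 0.0891 and adjusted p = 0.396 in edgeR's quasi-likelihood test).

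**Figure D3:**
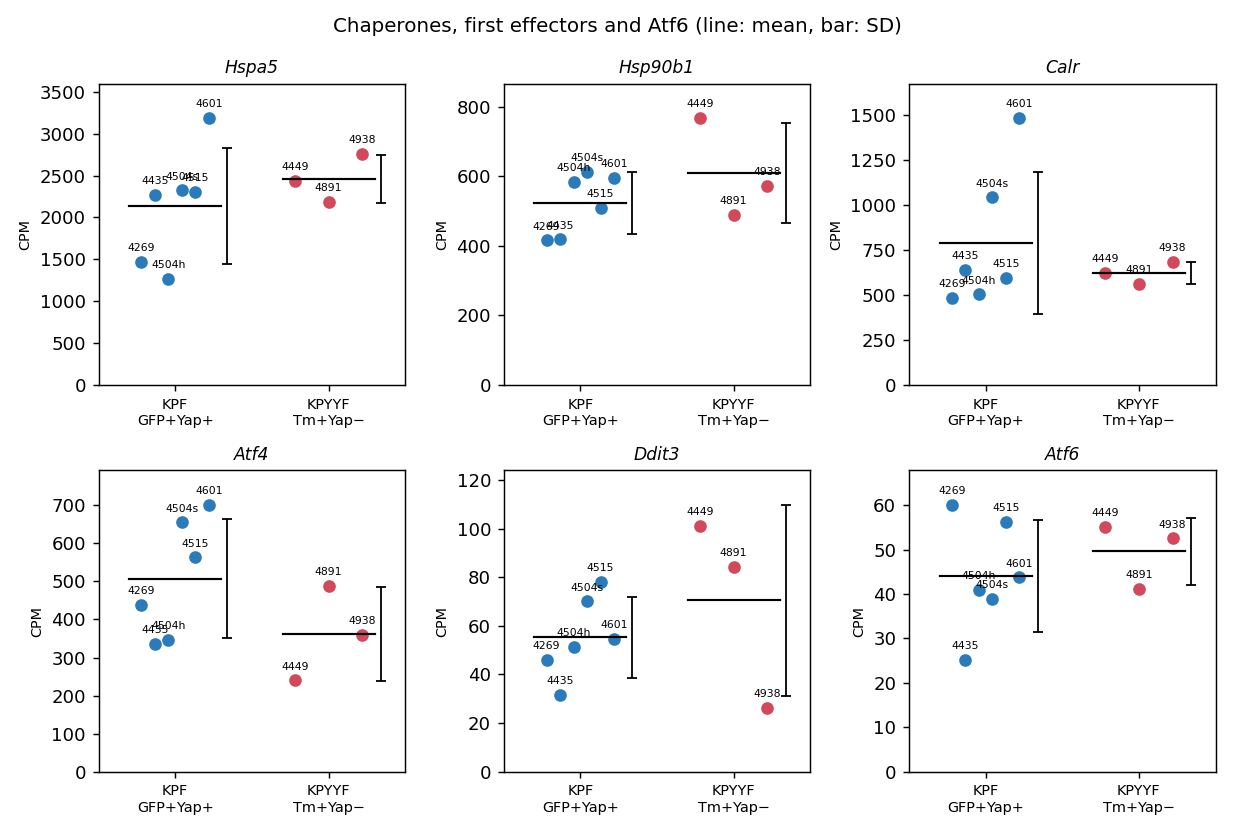
TMM-scaled CPM of Hspa5, Hsp90b1, Calr, Atf4, Ddit3 and Atf6 in each library, with the mean (line) and SD (bar) of 6 KPF and 3 KPYYF libraries. The groups overlap for each of the 6 genes, and KPF libraries 4504s and 4601 are at the top for Calr.

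Among the 5 enzymes of oxidative folding, Pdia4 had the lowest log2 fold change. Pdia4 (chr6:47796141-47813430, - strand), a disulfide isomerase with an additional active thioredoxin domain, was at 64.0, 81.5, 77.0, 115, 91.0 and 120 CPM in KPF libraries and at 31.5, 38.6 and 42.9 CPM in KPYYF libraries. The highest KPYYF level lay below the lowest KPF level. The mean was 91.4 ± 22.0 CPM (SD, n = 6) against 37.6 ± 5.75 CPM (SD, n = 3), a log2 fold change of -1.28 with a 95% interval from -1.96 to -0.60, and the p in edgeR's quasi-likelihood test was 0.00128 before and 0.0726 after Benjamini-Hochberg adjustment. The direction was the same and the unadjusted p under 0.05 in all 9 fits that left out 1 library each, with adjusted p from 0.0615 to 0.171. Among the other settings, DESeq2 gave the only adjusted p under 0.05 (0.00346), and the highest was 0.236, without KPF libraries 4504s and 4601 and KPYYF library 4449, where the log2 fold change was -0.92.

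The other 4 oxidative folding genes had log2 fold changes between -0.33 and 0.02. Pdia3 (ERp57), which works on glycoproteins with calnexin and calreticulin, was at 140 to 242 CPM and at 173, 164 and 180 CPM (-0.06, 95% interval -0.65 to 0.53). Pdia6 was at 178 to 238 CPM and at 204, 196 and 206 CPM (-0.03, 95% interval -0.53 to 0.47). P4hb, the classic disulfide isomerase and a subunit of collagen prolyl hydroxylase, was at 576 to 815 CPM and at 474, 916 and 651 CPM (0.02, 95% interval -0.54 to 0.58). The intervals of Pdia3, Pdia6 and P4hb leave out a fall of the size measured for Pdia4, and the difference between these genes itself was not tested. Ero1l, the oxidase that recharges these isomerases, had -0.33 (SE 0.40), with 19.1 CPM in KPYYF library 4449 and 41.4 and 62.1 CPM in the other 2.

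Of the 6 genes of ER-associated degradation and translocation, 5 were lower and 1 was higher, with a median of -0.42. Herpud1 (chr8:94386438-94395377, + strand), a membrane protein that gathers the degradation complex, was at 425, 172, 130, 138, 211 and 141 CPM in KPF libraries and at 103, 71.4 and 42.2 CPM in KPYYF libraries. KPF library 4269 was far above the others, and still each of the other 5 was above all 3 KPYYF libraries. The mean was 203 ± 113 CPM (SD, n = 6) against 72.1 ± 30.3 CPM (SD, n = 3), a log2 fold change of -1.49 with a 95% interval from -2.45 to -0.54 (unadjusted p = 0.00500 and adjusted p = 0.121 in edgeR's quasi-likelihood test). Without library 4269 it was -1.14, the smallest change of the 9 fits that left out 1 library, in all of which the unadjusted p was under 0.05, with adjusted p from 0.103 to 0.311. DESeq2 gave an adjusted p of 0.0182, and without KPF libraries 4504s and 4601 and KPYYF library 4449 the log2 fold change was -2.01.

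Syvn1, the ubiquitin ligase Hrd1 of the same complex, was the member with the highest log2 fold change, 0.75 (SE 0.41, adjusted p = 0.404 in edgeR's quasi-likelihood test). It was at 41.9 to 99.3 CPM in KPF libraries and at 184, 45.3 and 88.4 CPM in KPYYF libraries, so that KPYYF library 4449 alone lay above the KPF range, and without it the value was 0.09. Sel1l, the adaptor of Syvn1, had -0.28 (SE 0.29), Edem1, which extracts misfolded glycoproteins, -0.26 (SE 0.34), and Sec61b, a subunit of the translocation channel, -0.56 (SE 0.33). Derl3, a derlin known from secretory tissue and the least abundant member, had 7 to 95 reads in KPF libraries and 36, 0 and 0 reads in KPYYF libraries (log2 fold change -1.62, SE 1.67), and a count of 0 allows up to 0.328 and 0.329 CPM in those libraries.

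**Figure D4:**
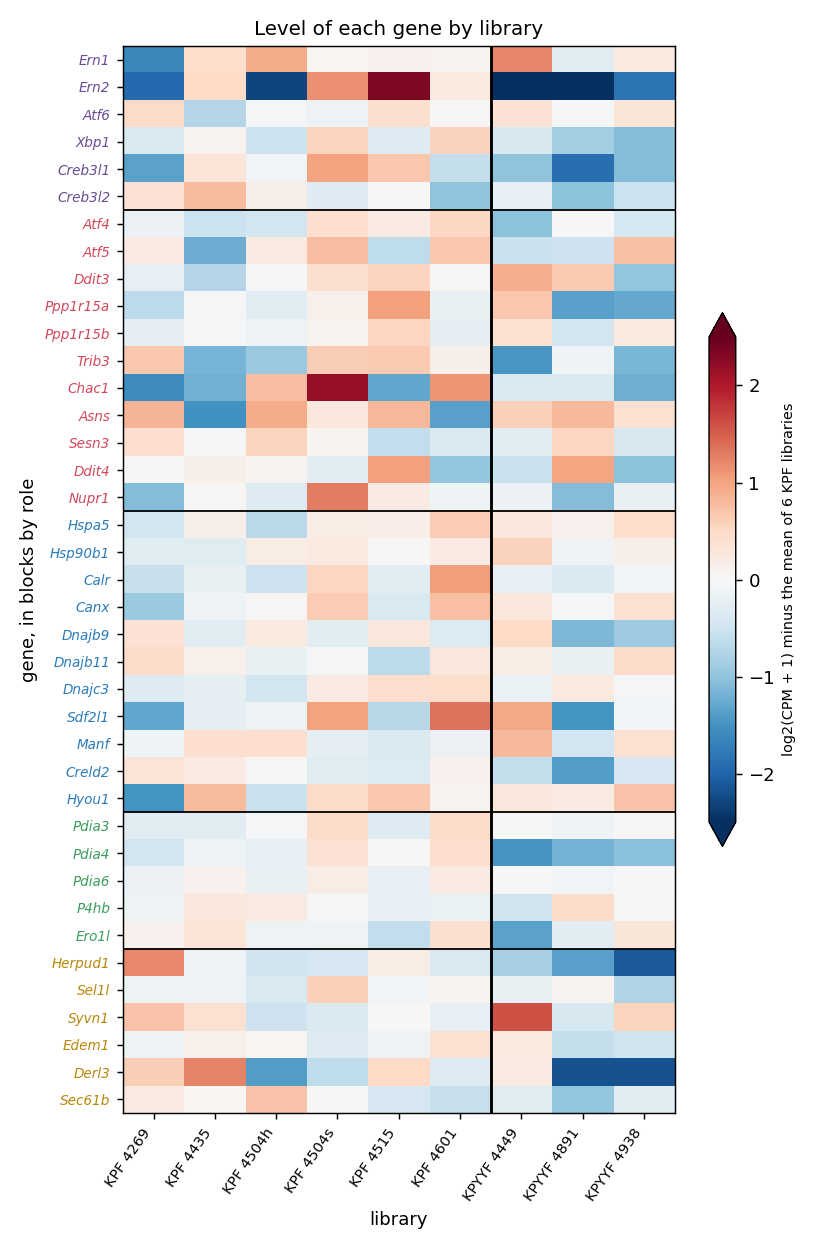
Level of each of the 39 genes in each library as log2(CPM + 1) minus the mean of the 6 KPF libraries, in blocks by role, with a vertical line between KPF (left) and KPYYF libraries (right) and colors cut at -2.5 and 2.5. Pdia4 and Herpud1 are blue in all 3 KPYYF libraries, as are other genes, among them Ern2, Xbp1, Creb3l1 and Creld2.

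The median of the 39 genes, relative to the KPF mean, was 0.20 in KPF library 4504s and 0.10 in 4601, against -0.14, -0.03, -0.12 and 0.01 in KPF libraries 4269, 4435, 4504h and 4515, and it was -0.14, -0.27 and -0.18 in KPYYF libraries 4449, 4891 and 4938. The SD of this median over the KPF libraries was 0.13. Those with the highest medians, 4504s and 4601, were also the KPF libraries high in acinar or leukocyte markers, and the part of these cells in the level of the members was not tested. KPF libraries 4504s and 4601 and KPYYF library 4449 were then left out, a choice made after seeing the data. In that fit the median log2 fold change of the members was -0.07, beside -0.05 over all genes tested. There 0 members had an adjusted p under 0.05 in edgeR's quasi-likelihood test.

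Of 104 further genes of the pathway, written down by role, 103 were tested, 60 of them higher and 43 lower (median 0.05). At an unadjusted p under 0.05 in edgeR's quasi-likelihood test, 6 were higher (6.10% of all genes tested) and 4 lower (10.0% of all genes tested). A single one passed at an adjusted p under 0.05, beside 1.10% of all genes tested. It was Psat1, the phosphoserine aminotransferase of serine synthesis and a known ATF4 target. Psat1 was at 35.0 to 73.0 CPM in KPF libraries and at 85.4, 139 and 222 CPM in KPYYF libraries. All 3 lay above all 6, as for 5 of the 103 genes and 3.92% of all genes tested. Its log2 fold change was 1.61 (SE 0.34, adjusted p = 0.0422 in edgeR's quasi-likelihood test). This call was lost in 8 of the 9 fits that left out 1 library, all but that without KPYYF library 4449. It was also lost with 4504h and 4504s summed and in libraries with at least 1000 Xist reads. Within the ATF4 list of 19 genes, 10 were higher and 9 lower, and the largest fall in size was that of Slc7a11, the cystine transporter, at 6.04 to 120 CPM in KPF libraries and 0.59, 8.53 and 3.07 CPM in KPYYF libraries (log2 fold change -3.61, SE 1.00, adjusted p = 0.116).

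The list of eIF2 and ATF6 regulators had 11 higher and 6 lower genes of 17 and a median of 0.04. Its largest value was that of Eif2b1, a subunit of the exchange factor that phosphorylated eIF2alpha blocks, at 7.19 to 12.4 CPM in KPF libraries and at 22.8, 35.6 and 23.7 CPM in KPYYF libraries (log2 fold change 1.50, SE 0.43, adjusted p = 0.116 in edgeR's quasi-likelihood test). Of 12 cytosolic aminoacyl-tRNA synthetases, 7 were higher and 5 lower (median 0.07), and Wars, the tryptophanyl-tRNA synthetase, which is also known to respond to interferon, was at 71.3 to 210 CPM in KPF libraries and at 45.5, 27.8 and 29.4 CPM in KPYYF libraries (log2 fold change -1.92, SE 0.43, adjusted p = 0.0514). The lists of other folding genes (12 of 20 higher, median 0.19), other degradation genes (6 of 13 higher, median -0.03) and other translocation and transport genes (14 of 22 higher, median 0.13) held no gene with an adjusted p under 0.05 in edgeR or DESeq2. Each held 1 gene with an unadjusted p under 0.05 in edgeR's quasi-likelihood test, beside 6.10% of all genes tested as higher and 10.0% as lower genes. DESeq2 called Psat1 and Eif2b1 as higher and Slc7a11, Wars and Gadd45a as lower.

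Cytosolic heat shock genes, which answer unfolded protein outside the ER, had a median of 0.47 with 10 of 12 higher. Of the higher genes 2 had an unadjusted p under 0.05 in edgeR's quasi-likelihood test, beside 6.10% of all genes tested, and the smallest adjusted p was 0.111. Their summed level was 4337 to 8130 CPM in KPF libraries and 8167, 6949 and 8517 CPM in KPYYF libraries. Immediate early genes of tissue dissociation had a median of -0.34 with 3 of 13 higher, and hypoxia genes of -0.42 with 3 of 13 higher, among which Car9, the hypoxia-induced carbonic anhydrase, had an adjusted p of 0.0422 in edgeR's quasi-likelihood test (log2 fold change -3.91).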

How the data were processed

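RNA of sorted tumor cells was made into QuantSeq 3′ end libraries. The values deposited by the authors are raw read counts for Ensembl genes, 1 file per library and not normalized. The submitters' processing notes name STAR, HTSeq and the mm10 genome build without versions. The annotation release and the strand setting are not given in the sources used here. The methods text describes BeadChip hybridization beside a read-sum filter and DESeq2, while the files hold whole-number read counts.

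Symbols and gene coordinates (mm10, the same assembly as GRCm38) came from GENCODE M21, which named 47224 of 47643 genes. The 14105 genes with 100 or more counts summed over 9 libraries were tested with edgeR 4.0.16 (quasi-likelihood, robust, TMM) in R 4.3.3, KPYYF against KPF without covariates, two-sided, with Benjamini-Hochberg adjustment over all of them. SEs were derived from the F statistic, and intervals are 95% intervals from the same fit. Reads that HTSeq assigned to no gene stayed out: genes took 37.3 to 42.0% of reads and multiply aligned reads 43.8 to 53.4%. Limits from a count of 0 are 3 counts and cover counting error only. The method was also run on simulated counts with changes larger than those of most members, so that run does not show how well small changes are found.

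The members, role lists, other pathway lists, marker lists and the choice of genes to name were made with earlier results of these data known, and the promoter motifs were chosen after the counts had been seen. Members are named with library values when their adjusted or unadjusted p was under 0.05, when groups did not overlap, or when they are sensors or first effectors; values of other members and lists are given by range and count, and other genes are named for an adjusted p under 0.05 or the extreme of a list. Alternatives were DESeq2 1.42.0, RLE and upper quartile normalization, no filter, filterByExpr, limma-voom (limma 3.58.1), libraries 4504h and 4504s summed, libraries with at least 1000 Xist reads, and each library left out. Figures were drawn with matplotlib 3.10.9. Part of the mouse genotype is not reported here.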

Additional observations from a re-analysis of the deposited data

Results flagged for a closer look

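In 4 of the 39 members, 1 KPF library stood far from the other 5 in CPM, by Dixon's gap criterion for 6 samples. The chance rate of this criterion, about 1 in 20 groups, holds for normally distributed values, and the CPM were not transformed. The count of 4 can therefore not be set against that rate. Ppp1r15a was at 239 CPM and Ppp1r15b at 130 CPM in KPF library 4515, where the next highest KPF libraries were at 128 and 95.2 CPM. Nupr1 was at 793 CPM in KPF library 4504s, which also had the highest acinar marker sum, with the next highest at 373 CPM, and its log2 fold change without that library was -0.19. Herpud1 was at 425 CPM in KPF library 4269, with the next highest at 211 CPM, and its log2 fold change without that library was -1.14.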

How the results depend on the processing

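The count of members with an adjusted p under 0.05 stayed at 0 in either direction under every alternative run except the DESeq2 Wald test, which called 3 lower members (Ern2, Pdia4 and Herpud1) and 8.49% of all genes tested. The median of the members was negative under every alternative, from -0.28 to -0.07. That of all genes tested was also negative, except for 0.034 in libraries with Xist reads. Without a filter it was -0.31, below the -0.18 of the members. Without KPYYF library 4938 it was -0.086 beside -0.094 for the members. No paired analysis was possible because the groups share no replicate number. With library 4504h summed with 4504s, 0 further pathway genes were called higher, and with libraries with at least 1000 Xist reads also 0. DESeq2 called 2 higher and 3 lower further pathway genes, and without a filter 1 lower gene was called. Members without overlap numbered 1 higher and 5 lower in libraries with Xist reads (8.78% and 10.5% of all genes tested there) and 9 lower (13.7%) without KPF libraries 4504s and 4601 and KPYYF library 4449, a setting chosen after seeing the data in which 1 further pathway gene was called lower.

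When single libraries were left out, members met the rule of the methods as higher genes 0 to 1 times (1 without KPYYF library 4891) and as lower genes 2 to 8 times (8 without 4449 beside 10.5% of all genes tested there, 2 without 4891 beside 8.86%). Members without overlap numbered 0 to 1 higher (1 without 4938, beside 6.85%) and 3 to 8 lower (8 without 4449, beside 10.4%). Further pathway genes called higher numbered 0 to 1, and those called lower 0 to 1.

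Some log2 fold changes changed sign. With limma-voom Ddit3 was at -0.12, Ppp1r15b at -0.029 and Canx at -0.0068. With 4504h and 4504s summed Sesn3 was at 0.0091. In libraries with Xist reads Ddit4 was at 0.10, Dnajc3 at 0.19 and P4hb at -0.12. Dnajc3 was at 0.0040 with DESeq2, 0.0038 with RLE and 0.013 with upper quartile factors. Without KPF libraries 4504s and 4601 and KPYYF library 4449, Ern1 was at -0.19, Atf4 at 0.036, Atf5 at 0.52, Ppp1r15b at -0.12, Sesn3 at 0.033, Calr at 0.20, Dnajc3 at 0.26, Manf at -0.092, Pdia3 at 0.23, Pdia6 at 0.10, Ero1l at 0.11 and Syvn1 at -0.029. With single libraries left out, the ranges across 0 were -0.72 to 0.082 for Atf5, -0.035 to 0.30 for Canx, -0.0014 to 0.75 for Ddit3, -0.90 to 0.29 for Ddit4, -0.023 to 0.31 for Dnajb11, -0.14 to 0.10 for Dnajc3, -0.17 to 0.68 for Ern1, -0.76 to 0.013 for Ero1l, -0.024 to 0.58 for Manf, -0.25 to 0.22 for P4hb, -0.12 to 0.064 for Pdia3, -0.067 to 0.039 for Pdia6, -0.10 to 0.29 for Ppp1r15b, -0.97 to 0.26 for Sdf2l1 and -0.42 to 0.12 for Sesn3. The cause of these changes was not tested. The 95% intervals of 26 members reach past a 2-fold change in at least 1 direction.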
